A study of Homo sapiens with 60 samples.

Results

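The WNT ligands, their receptors and the nuclear factors of the pathway were measured in 4 EGFR-mutant lung adenocarcinoma cell lines exposed to osimertinib, an inhibitor of mutant EGFR. The 42 genes were taken by symbol from the 19712 genes quantified: all 19 WNT ligands, all 10 Frizzled (FZD) receptors, and 13 further genes, namely the coreceptors LRP5 and LRP6, CTNNB1 (β-catenin), AXIN1, AXIN2, the TCF/LEF factors LEF1, TCF7, TCF7L1 and TCF7L2, and the inhibitors DKK1, RNF43, ZNRF3 and NKD1. PC9, HCC827, H1975 and HCC2935 cells were each sampled in 5 arms of 3 biological replicates, giving 60 RNA-seq libraries. The DMSO arm received vehicle for 24 h after 21 days of growth without drug, and the acute arm received 500 nM osimertinib for 24 h, both from the same parental culture. Persisters (drug-tolerant persister cells, DTP) were the cells that remained after 21 days in 500 nM osimertinib. The short washout arm was persisters kept 24 h without drug. The long washout arm was persisters kept without drug until they proliferated again, for 7 days in PC9, 3 days in H1975, 4 days in HCC827 and 10 days in HCC2935. Each line is a single culture lineage, so the replicates describe that lineage and not the diversity of such tumours.

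WNT proteins are secreted lipid-modified ligands that bind a Frizzled receptor together with LRP5 or LRP6. In canonical signalling this binding inactivates a destruction complex built on the scaffolds AXIN1 and AXIN2, β-catenin accumulates, and it activates genes through the TCF/LEF factors bound to DNA. AXIN2, LEF1, TCF7, RNF43, ZNRF3, NKD1 and DKK1 are known as target genes in many tissues, and several of them feed back on the pathway as inhibitors. Other ligands, WNT5A and WNT11 among them, are best known for β-catenin-independent signalling through planar polarity and calcium. In the adult lung the pathway is known for its role in the upkeep of alveolar epithelial progenitors.

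The start regions of 3 genes are shown because the results below turn on them: WNT6 rose most in PC9, WNT9A moved in opposite directions between lines, and TCF7L1 rose in all of them. Each run is the 250 bases upstream of a RefSeq start (GRCh38.p14), 5′ to 3′ on the strand of the gene, and capitals mark the GC box, GGGCGG on either strand.
WNT6 (chr2:218859555-218859804, plus strand): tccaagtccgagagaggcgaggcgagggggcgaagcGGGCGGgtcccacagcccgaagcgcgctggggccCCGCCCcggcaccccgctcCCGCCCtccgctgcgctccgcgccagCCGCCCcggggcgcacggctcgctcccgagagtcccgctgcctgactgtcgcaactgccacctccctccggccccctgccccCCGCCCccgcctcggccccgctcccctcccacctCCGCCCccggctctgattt
WNT9A (chr1:227947933-227948182, minus strand): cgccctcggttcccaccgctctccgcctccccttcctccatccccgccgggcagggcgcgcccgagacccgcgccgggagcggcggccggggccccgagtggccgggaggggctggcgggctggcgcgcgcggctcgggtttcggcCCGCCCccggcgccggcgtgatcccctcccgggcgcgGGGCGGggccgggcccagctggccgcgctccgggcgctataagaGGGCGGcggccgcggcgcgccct
TCF7L1 (chr2:85133142-85133391, plus strand): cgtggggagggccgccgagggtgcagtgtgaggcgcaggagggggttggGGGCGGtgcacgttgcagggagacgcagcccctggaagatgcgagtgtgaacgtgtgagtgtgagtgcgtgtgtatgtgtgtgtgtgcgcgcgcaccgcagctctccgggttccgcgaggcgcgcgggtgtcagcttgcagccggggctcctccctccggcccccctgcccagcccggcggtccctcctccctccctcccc
The WNT6 window held 6 GC boxes, the WNT9A window 3 and the TCF7L1 window 1. RefSeq start windows were at hand for 30 of the 42 genes, 37 windows in all, of which 27 held a GC box against 42.6% of the 35116 windows of this length in the table. The sequence CTTTGAT, a form of the TCF/LEF core, was found on either strand in 0 of the 37 windows and in 2.26% of all windows. Other forms of the core were not searched, and AXIN2, NKD1 and ZNRF3 were among the genes without a window. With so few windows and so low a share, this cannot show that the genes lack TCF/LEF sites. The AP-1 motif TGANTCA was found in 1 of the 37, that of RNF43, and in 6.57% of all windows. These matches describe the letters of a short window and do not show binding.

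Library totals ranged from 17.7 to 49.1 M estimated counts (median 30.15 M) and went with the line. They were 34.7 to 47.1 M in PC9 and 38.7 to 49.1 M in H1975. In HCC827 they were 17.7 to 25.1 M and in HCC2935 18.6 to 25.6 M. Depth and line cannot be told apart, so numbers of tested or called genes, and values near 0, are not on equal terms between lines. All libraries expressed epithelial markers, with summed levels of 1640 to 13600 TPM (transcripts per M, a level per transcript length), as the labelled cell type would. The lowest library read 575 TPM for KRT8, 535 for KRT18 and 394 for KRT19. The sums hide a wider range of the other 2 markers, with CDH1 at 1.28 to 674 TPM and EPCAM at 18.1 to 795 TPM. These markers moved with the persister state: all 5 were lower in HCC827 persisters (sums of 2350 to 3310 TPM against 6220 to 7920 under DMSO), 4 of 5 in HCC2935 (7010 to 8050 against 10000 to 10500) and 3 of 5 in H1975 (1640 to 2290 against 2350 to 2950), while in PC9 2 were higher and 2 lower (8010 to 8240 against 6900 to 7050). The 5 fibroblast genes (COL1A1, COL3A1, DCN, LUM and PDGFRB) summed to 5.22 to 176 TPM over all libraries. Their sums were higher in every persister library than in any DMSO library of HCC827 (26 to 62.8 against 5.22 to 9.37 TPM), PC9 (13.8 to 18.4 against 6.16 to 8.41 TPM) and HCC2935 (43.4 to 83.7 against 26.7 to 33.3 TPM), and overlapped in H1975 (31.9 to 80.3 against 20.9 to 49 TPM). All 5 passed the test as higher in HCC827 persisters, 3 of 5 in H1975, 2 of 3 tested in PC9 and 2 of 4 tested in HCC2935. The highest level in a library was 167 TPM for COL1A1, 16.5 for COL3A1, 11.7 for LUM, 8.50 for PDGFRB and 1.33 for DCN, and each of these but COL1A1, whose lowest was 4.73 TPM, was at 0 in some library. Of the leukocyte genes, CD68, which epithelial cells also express, read 9.50 to 175 TPM, and PTPRC and CD3E read at most 3.48 and 0.246 TPM. The 3 endothelial genes summed to 0.255 to 22 TPM, with CDH5 at most 21.1 and PECAM1 at most 10.2 TPM. The part of these genes in the WNT results was not tested. Of 10 MAPK targets (DUSP4, DUSP6, SPRY2, SPRY4, ETV4, ETV5, PHLDA1, FOSL1, EGR1 and SPRED1), 8 to 10 were lower in the acute arm of each line. In long washout against DMSO, 7 were still lower in PC9, 3 in HCC827, 8 in H1975 and 7 in HCC2935. There 1 was higher in HCC827 and 1 in H1975, and the median log2 fold changes were −1.22, −0.29, −2.14 and −1.27 in that order. All 12 proliferation genes were lower in the acute arm and in the persisters of every line. They stayed low in the long washout arm of H1975, labelled as proliferating again, with a mean log2(CPM + 1) of 5.76 to 6.19 against 7.78 to 7.95 in DMSO. The same held in that of HCC827, with 6.07 to 6.31 against 7.56 to 7.69. In the long washout arms of PC9 and HCC2935, 6 of the 12 were still called lower than in DMSO (median log2 fold changes −0.42 and −0.39). In PC9, long washout replicate 3 lay nearer the persisters than its 2 partners did for several of the 42 genes, and not for these alone. Its proliferation mean was 6.66 against 7.14 and 7.29 in its partners and 5.95 to 5.97 among persisters. Its MAPK target mean was 3.63 against 4.81 and 5.26, and 3.58 to 4.10 among persisters. The PC9 long washout results are therefore given with and without it. In such bulk libraries, a change in a transcript per cell and a change in which cells are present cannot be told apart.

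Of the 42 genes, 15 reached a group mean of 1 TPM in all 20 groups and 6 in none (WNT1, WNT2, WNT8A, WNT8B, WNT9B and WNT16). Under DMSO, 30 genes were at 1 TPM or more in PC9, 17 in HCC827, 21 in H1975 and 31 in HCC2935. Among persisters the numbers were 29, 26, 25 and 34 in the same order. Enough counts for a test were present for 34 genes in PC9, 34 in HCC827, 32 in H1975 and 38 in HCC2935, and 29 of them were tested in all 4 lines.

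Persisters were compared with DMSO cells of the same line, with an edgeR quasi-likelihood test over all genes and an adjusted p below 0.05 as the call. In PC9 13 of the 34 tested genes rose and 12 fell, where 69.2% of all genes passed. In HCC827 12 rose and 5 fell of 34 (43.4% of all genes passed). In H1975 11 rose and 8 fell of 32 (51.7%), and in HCC2935 17 rose and 7 fell of 38 (52.8%). These shares were not tested against those of all genes and are not read as a property of the WNT genes. Their median log2 fold change was 0.07 in PC9, 0.45 in HCC827, −0.06 in H1975 and 0.50 in HCC2935, beside 0.06, 0.03, 0.02 and 0.04 over all genes tested. The acute arm gave 13 higher and 11 lower in PC9 (66.2% of all genes passed), 5 and 3 in HCC827 (39%), 7 and 8 in H1975 (51.6%) and 11 and 8 in HCC2935 (47.1%). For HCC2935 acute against DMSO, same-numbered replicates deviated together, and the fit with the replicate number as a block on the 6 libraries called 22 of the genes in place of 19. It added WNT9A, AXIN1 and RNF43.

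**Figure D1:**
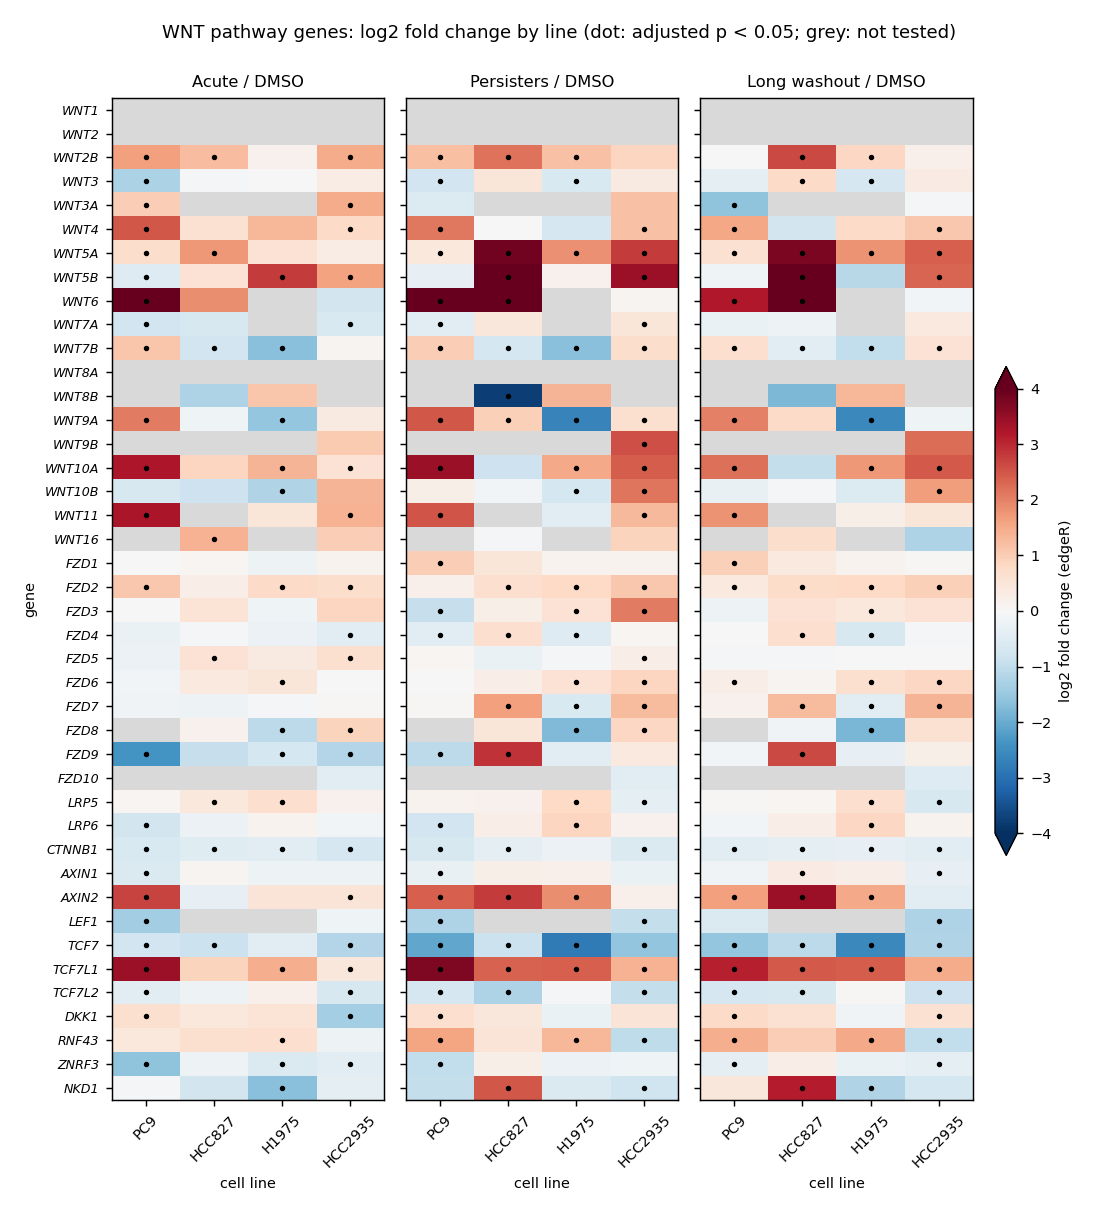
Log2 fold change of each of the 42 genes (rows) in acute osimertinib, persisters and long washout against DMSO for each line (columns), with the colour limited to ±4, a dot where the adjusted p was below 0.05 and grey where the gene was not tested. TCF7L1 and WNT5A were higher and TCF7 lower in the persisters of all 4 lines, while WNT7B and WNT9A were red in some lines and blue in others.

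The ligands moved in opposite directions in different lines. Among persisters 8 ligands rose and 2 fell of 13 tested in PC9 (69.2% of all genes passed). In HCC2935 10 rose and 0 fell of 15 (52.8%). In HCC827 5 rose and 2 fell of 13 (43.4%), and in H1975 3 rose and 4 fell of 11 (51.7%). The ligand shares were not tested against those of all genes. Summed over the 19 ligands, the level went from 100 ± 7.91 TPM (SD, n = 3) under DMSO to 280 ± 6.11 TPM among persisters in PC9 and from 158 ± 14.3 to 365 ± 11.8 TPM in HCC2935. In H1975 the sum went from 70.5 ± 10.1 to 21.3 ± 0.52 TPM. In HCC827 it was 43.6 ± 3.23 TPM under DMSO and 39.1 ± 4.53 TPM among persisters, and the SDs overlapped. These sums were not tested.

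WNT7B, an epithelial ligand of lung development, held the largest share of ligand TPM under DMSO in PC9 (64.5%), HCC827 (76.3%) and HCC2935 (65.6%). In PC9 it read 68.4, 67.7 and 58.2 TPM under DMSO and 154, 158 and 142 TPM among persisters. In HCC2935 it read 104, 111 and 96 TPM under DMSO and 198, 172 and 188 TPM among persisters. The groups did not overlap in either line, and WNT7B rose by 0.98 ± 0.08 (SE) on the log2 scale in PC9 and by 0.70 ± 0.10 in HCC2935. HCC827 went the other way, from 30.4, 36.8 and 32.4 TPM to 19.9, 17.1 and 24.6 TPM, a log2 fold change of −0.72 ± 0.16 (adjusted p = 0.00193). H1975 fell further, from 24.5, 16.6 and 19.7 TPM to 6.47, 6.20 and 6.28 TPM, a log2 fold change of −1.67 ± 0.21 (adjusted p = 2.135e-05). The 4 changes differed by an F-test of the line differences (adjusted p = 4.008e-09).

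WNT9A led the ligands of H1975 under DMSO, with 58.9% of their TPM, and fell there more than any other expressed ligand. H1975 libraries read 48.5, 37.0 and 39.0 TPM under DMSO, 12.9, 13.3 and 15.9 TPM in the acute arm and 6.05, 8 and 5.42 TPM among persisters. All drug-exposed libraries lay below all DMSO libraries, and the log2 fold change in persisters was −2.66 ± 0.18 (adjusted p = 2.06e-07). In PC9 the order was reversed, with 4.94, 4.74 and 3.82 TPM under DMSO, 17.0, 18.6 and 20.1 TPM in the acute arm and 26.6, 32.0 and 31.8 TPM among persisters. That is a rise of 2.49 ± 0.14 on the log2 scale (adjusted p = 3.014e-08). WNT9A also rose in HCC2935 persisters, from 12.6, 11 and 7.86 TPM to 19.9, 17.2 and 18.0 TPM (log2 fold change 0.65 ± 0.17). In HCC827 it stayed low, from 0.788, 0.791 and 0.335 TPM to 1.45, 0.933 and 1.40 TPM (log2 fold change 0.96 ± 0.35, adjusted p = 0.0366, kept in 8 of 14 alternatives with adjusted p from 0.0238 to 0.15). The line differences passed their F-test in the acute arm (adjusted p = 1.018e-07) and among persisters (adjusted p = 6.732e-10), where 40.5% and 61.6% of all genes passed that test.

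WNT6 and WNT10A, canonical ligands known from epithelial appendages, lie beside each other on chromosome 2 on the same strand, at 218859821 to 218874233 and 218880363 to 218899581 (GENCODE release 29, GRCh38), 6129 bases apart. In PC9, WNT6 read 2.01, 2.38 and 1.38 TPM under DMSO, 27.2, 35.0 and 30.3 TPM in the acute arm, and 37.7, 40.3 and 36.3 TPM among persisters. WNT10A read 1.37, 1.42 and 0.684 TPM under DMSO, 11.2, 10.5 and 10.7 TPM in the acute arm, and 14.7, 15.2 and 15.6 TPM among persisters. Both were higher within the first 24 h in every PC9 library, by 4.02 ± 0.28 for WNT6 and 3.24 ± 0.40 for WNT10A on the log2 scale, and by 4.05 ± 0.28 and 3.45 ± 0.41 among persisters.

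In HCC2935 the neighbours parted. WNT10A went from 13.9, 16.5 and 14.8 TPM under DMSO to 23.1, 19.8 and 23.4 TPM in the acute arm and 83.2, 89.6 and 98.5 TPM among persisters, a rise of 2.44 ± 0.10 on the log2 scale (adjusted p = 1.368e-10). WNT6 read 2.22, 1.51 and 1.12 TPM under DMSO and 1.67, 2.97 and 1.24 TPM among persisters, with overlapping groups (log2 fold change 0.12 ± 0.47, adjusted p = 0.849). In HCC827, WNT6 was at 0 in all 3 DMSO libraries and at 1.34, 0.567 and 0.288 TPM among persisters, from 52 estimated counts in all. Set against a floor of 3 counts over the DMSO group, this is at least 18.2-fold higher (adjusted p = 0.00304). WNT10A in HCC827 read 1.14, 0.541 and 1.00 TPM under DMSO and 0.427, 0.440 and 0.642 TPM among persisters and did not pass the test. In H1975, WNT10A rose from 0.394, 0.428 and 0.465 TPM to 1.08, 0.996 and 1.58 TPM (log2 fold change 1.51 ± 0.36), and WNT6 had too few counts for a test.

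**Figure D2:**
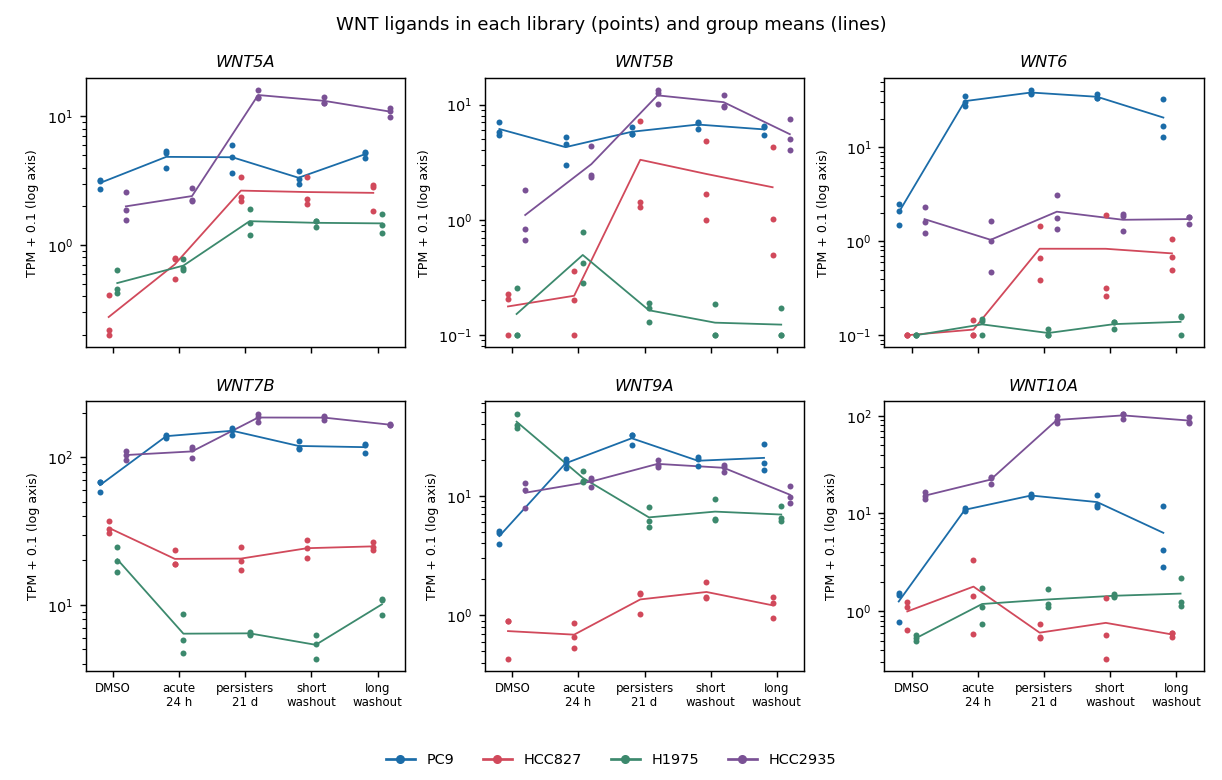
TPM of 6 ligands in every library, on a log axis after adding 0.1, by line and arm, with points for libraries and lines for group means. WNT6 and WNT10A rose together in PC9, WNT10A alone in HCC2935, and WNT9A fell in H1975 while it rose in PC9.

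WNT5A, a ligand best known for β-catenin-independent signalling, was called higher in the persisters of all 4 lines, a pattern shared by 5.47% of the genes tested in all of them. HCC827 libraries read 0.310, 0.117 and 0.0989 TPM under DMSO, 0.684, 0.694 and 0.443 TPM in the acute arm and 2.09, 3.29 and 2.28 TPM among persisters. HCC2935 libraries read 1.77, 2.47 and 1.46 TPM under DMSO, 2.13, 2.11 and 2.67 TPM in the acute arm and 15.9, 13.8 and 14 TPM among persisters. H1975 libraries read 0.322, 0.358 and 0.538 TPM under DMSO and 1.37, 1.11 and 1.82 TPM among persisters. In each of these lines every persister library lay above every DMSO library, and the log2 fold changes were 3.84 ± 0.41 in HCC827, 2.79 ± 0.17 in HCC2935 and 1.84 ± 0.26 in H1975. PC9 already held 3.12, 2.64 and 3.06 TPM under DMSO and reached 5.86, 3.55 and 4.74 TPM among persisters, a log2 fold change of 0.43 ± 0.18 (adjusted p = 0.0468), and the groups overlapped on the CPM scale of the test though not in TPM. The PC9 call was kept in 5 of 14 alternatives, with adjusted p from 0.00614 to 0.277, and the higher value rests on persister replicate 1, without which the log2 fold change was 0.23 (adjusted p = 0.277). An antisense gene, WNT5A-AS1, overlaps WNT5A, and whether the counting used strand is not given in the sources used here.

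WNT5B, a close relative of WNT5A, rose in the persisters of HCC2935 and HCC827. HCC2935 went from 0.736, 1.70 and 0.566 TPM under DMSO through 4.24, 2.34 and 2.24 TPM in the acute arm to 12.4, 13.2 and 10.1 TPM (log2 fold change 3.42 ± 0.38, adjusted p = 1.931e-06). HCC827 went from 0.126, 0 and 0.107 TPM to 7.14, 1.20 and 1.33 TPM, so that replicate 1 held most of the level. Without that replicate the HCC827 log2 fold change moved from 5.33 ± 1.23 to 4.06 (adjusted p = 0.0135). PC9 showed no call among persisters, with 6.98, 5.39 and 5.72 TPM under DMSO and 5.42, 5.41 and 6.28 TPM after 21 days. In H1975 WNT5B stayed below 1 TPM, with 0.158, 0 and 0 TPM under DMSO, 0.320, 0.183 and 0.686 TPM in the acute arm, which was called (log2 fold change 2.81, adjusted p = 0.0473, kept in 6 of 14 alternatives), and 0.0906, 0.0310 and 0.0722 TPM among persisters, which was not. WNT5B overlaps FBXL14.

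WNT11, WNT4, WNT2B, WNT3, WNT7A, WNT10B and WNT3A made up the rest of the expressed ligands. WNT11, a β-catenin-independent ligand, rose in PC9 persisters from 2.31 ± 0.55 to 15.9 ± 1.98 TPM (SD, n = 3) and in HCC2935 from 1.52 ± 0.482 to 4.17 ± 0.49 TPM. WNT4, a ligand of kidney and gonad development, rose in the same lines, from 1.10 ± 0.131 to 5.59 ± 0.272 TPM and from 2.40 ± 0.303 to 5.98 ± 0.439 TPM. WNT2B rose in PC9, HCC827 and H1975 by 1.19, 2.16 and 1.16 on the log2 scale, from means below 0.5 TPM, and in HCC2935 its log2 fold change was 0.86 ± 0.42 (adjusted p = 0.0971). WNT3 fell in PC9 and H1975, by 0.76 and 0.60 on the log2 scale. WNT7A fell in PC9 by 0.41 and was higher in HCC2935 by 0.48 on the log2 scale. WNT10B fell in H1975 by 0.70 on the log2 scale, and its HCC2935 rise of 2.15 ± 0.57 was between means of 0.0654 and 0.342 TPM. WNT3A, a classical canonical ligand, reached 1 TPM in HCC2935 alone, with 0.772 ± 0.318 TPM under DMSO. In the acute arm it read 2.08 ± 0.419 TPM and rose (log2 fold change 1.47 ± 0.51, adjusted p = 0.0273). With the replicate block on the 6 libraries the edgeR adjusted p was 0.00381. Among persisters WNT3A read 1.95 ± 0.871 TPM and was not called (1.19 ± 0.51, adjusted p = 0.063).

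Among the Frizzled receptors the summed level was 85.3 TPM under DMSO and 107 TPM among persisters in PC9, 46 and 67.6 TPM in HCC827, 66.1 and 94.9 TPM in H1975, and 93.3 and 173 TPM in HCC2935. FZD2 was called higher among persisters in HCC827 (log2 fold change 0.68 ± 0.16), H1975 (0.80 ± 0.14) and HCC2935 (1.08 ± 0.16). In H1975 it read 23.9, 40.4 and 31.8 TPM under DMSO and 58.2, 48.8 and 57.5 TPM among persisters. In PC9, FZD2 read 39.1, 33.8 and 28.3 TPM under DMSO, 68.6, 74.3 and 65.9 TPM in the acute arm and 45.5, 42.6 and 49.4 TPM among persisters, which put the acute libraries above both other arms and left the persister comparison short of a call (log2 fold change 0.19 ± 0.11). FZD7, a receptor often expressed in progenitor cells, rose in HCC827 from 3.08, 2.48 and 2.55 TPM to 6.05, 9.30 and 10.2 TPM, and in HCC2935 from 11.9, 11.7 and 9.06 TPM to 27.4, 27.4 and 31.9 TPM. In H1975 it fell from 5.02, 4.06 and 4.67 TPM to 3.28, 3.09 and 2.51 TPM (log2 fold change −0.62 ± 0.14), and the line differences passed their test (adjusted p = 5.058e-07).

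FZD9 was low in all lines and changed in different ways. In HCC827 it rose from 0.321, 0.0811 and 0.0990 TPM to 1.25, 1.05 and 1.43 TPM (log2 fold change 2.88 ± 0.68, adjusted p = 0.00323). In PC9 it read 1.40, 0.939 and 0.917 TPM under DMSO, 0.124, 0.208 and 0.260 TPM in the acute arm and 0.608, 0.250 and 0.999 TPM among persisters. All acute libraries lay below DMSO, persister replicate 2 lay among the acute libraries, and persister replicate 3 lay within the DMSO range (log2 fold change −1.06 ± 0.39, adjusted p = 0.024, kept in 10 of 14 alternatives). FZD3 fell in PC9 by 0.93 on the log2 scale and rose in H1975 by 0.59 and in HCC2935 by 2.09. FZD4 fell in PC9 and H1975, by 0.42 and 0.53 on the log2 scale, and was higher in HCC827 by 0.68. FZD6 rose in H1975 (0.58 ± 0.13) and HCC2935 (0.85 ± 0.12), and FZD1 in PC9 (0.97 ± 0.13). FZD8 fell in H1975, between means of 0.183 and 0.0534 TPM, and rose in HCC2935, from 4.56 ± 0.88 to 9.06 ± 1.74 TPM. FZD5 rose in HCC2935 by 0.25 on the log2 scale. FZD10 was expressed in HCC2935 alone, with 3.24 ± 0.782 TPM under DMSO and 2.62 ± 0.16 TPM among persisters, and was called in none of its comparisons. The coreceptor LRP6 fell in PC9 (log2 fold change −0.75 ± 0.15) and rose in H1975 (0.86 ± 0.10). Its partner LRP5 rose in H1975 (0.79 ± 0.16) and fell in HCC2935 (−0.41 ± 0.09).

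CTNNB1, which encodes β-catenin, fell in the acute arm of every line, the 1 gene of the 42 called in all 4, and 0 rose in all 4. PC9 libraries read 148, 140 and 154 TPM under DMSO and 95.5, 87 and 103 TPM in the acute arm. HCC827 libraries read 118, 119 and 113 TPM and then 83.1, 85.6 and 93.5 TPM. H1975 libraries read 148, 133 and 145 TPM and then 103, 105 and 97.6 TPM, and HCC2935 libraries read 90.3, 84.3 and 118 TPM and then 58.7, 59.4 and 60.3 TPM. Every acute library lay below every DMSO library of its line. The log2 fold changes were −0.61 ± 0.08 in PC9, −0.48 ± 0.07 in HCC827, −0.45 ± 0.10 in H1975 and −0.67 ± 0.10 in HCC2935, and they were called under every alternative run. Among all genes tested in the 4 lines, 11.5% fell and 8.15% rose in all 4 acute arms. Persisters read 119, 103 and 116 TPM in PC9, 95.9, 93.1 and 88.5 TPM in HCC827, 122, 134 and 103 TPM in H1975, and 74.0, 66.9 and 72.8 TPM in HCC2935. The persister fall was called in PC9, HCC827 and HCC2935 and not in H1975 (log2 fold change −0.24 ± 0.10, adjusted p = 0.0597, with 0.0178 to 0.22 over the alternatives). CTNNB1 overlaps ULK4, and these values are of RNA and say nothing of β-catenin protein. AXIN1, the constitutive scaffold of the destruction complex, fell by 0.30 on the log2 scale in PC9 persisters and passed in no other line.

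Of the TCF/LEF factors, TCF7L1 rose and TCF7 fell among the persisters of all 4 lines. TCF7L1, often a repressor in the absence of β-catenin, was called higher among persisters in every line and under every alternative run. It lies on chromosome 2 at 85133410 to 85310388 and overlaps AC093162.1. PC9 libraries read 1.93, 2.23 and 2.00 TPM under DMSO, 20.4, 23.6 and 20.7 TPM in the acute arm and 30.0, 33.2 and 34.1 TPM among persisters. H1975 libraries read 1.22, 2.30 and 1.58 TPM, then 4.50, 4.71 and 4.23 TPM, then 10.5, 7.50 and 8.10 TPM. HCC827 libraries read 0.539, 0.578 and 0.297 TPM under DMSO and 1.30, 2.74 and 3.18 TPM among persisters, and HCC2935 libraries 19.2, 23.3 and 19.7 TPM and then 49.1, 64.2 and 66.2 TPM. The persister groups lay wholly above DMSO in each line, with log2 fold changes of 3.73 ± 0.19 in PC9, 2.34 ± 0.46 in HCC827, 2.38 ± 0.19 in H1975 and 1.38 ± 0.14 in HCC2935. Their adjusted p was 1.423e-08, 0.000919, 4.991e-07 and 7.82e-07 in that order. The persister sizes differed between lines (F-test of line differences, adjusted p = 5.767e-05). After 24 h of drug, TCF7L1 was called higher in PC9, H1975 and HCC2935. The HCC2935 change at 24 h was 0.38 to 0.54 on the log2 scale over the alternatives (edgeR adjusted p = 0.0157, kept in 11 of 14). With the replicate block on the 6 libraries it was 0.40 (edgeR adjusted p = 0.00588). HCC827, at 0.89 ± 0.46, was not called (adjusted p = 0.147).

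TCF7, a factor best known from T cells and itself a β-catenin target, went down. PC9 libraries read 12.6, 12.7 and 14.7 TPM under DMSO, 8.59, 5.77 and 8.75 TPM in the acute arm and 4.20, 3.41 and 3.71 TPM among persisters. H1975 libraries read 12.8, 10.1 and 9.89 TPM, then 6.97, 7.34 and 9.84 TPM, then 1.75, 1.88 and 0.970 TPM. HCC2935 libraries fell from 4.65, 3.72 and 3.71 TPM to 2.53, 1.11 and 0.778 TPM. HCC827 libraries read 2.56, 3.87 and 2.74 TPM under DMSO and 2.47, 1.19 and 1.51 TPM among persisters. The log2 fold changes were −2.07 ± 0.21, −2.83 ± 0.25, −1.59 ± 0.41 and −0.87 ± 0.33 in that order of lines, and the groups did not overlap. The HCC827 call (adjusted p = 0.0431) was kept in 5 of 14 alternatives, with adjusted p from 0.018 to 0.154. Of the genes tested in all lines, 8.42% fell among the persisters of all 4. TCF7 overlaps SKP1.

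LEF1 was expressed in PC9 and HCC2935. In PC9 it went from 7.52, 8.16 and 7.32 TPM under DMSO to 2.61, 2.71 and 3.26 TPM in the acute arm and 3.45, 3.07 and 5.03 TPM among persisters. In HCC2935 it went from 7.06, 5.86 and 11.8 TPM to 3.02, 5.02 and 6.06 TPM among persisters. The PC9 groups did not overlap (log2 fold change −1.24 ± 0.25), and in HCC2935 the highest persister library passed the lowest DMSO library in TPM (−0.96 ± 0.33, adjusted p = 0.0221, kept in 11 of 14 alternatives). In HCC827 and H1975 its highest values were 0.24 and 0.0781 TPM and it was not tested. TCF7L2, the main TCF of intestinal epithelium, fell in PC9 (−0.66 ± 0.13), HCC827 (−1.23 ± 0.16) and HCC2935 (−0.95 ± 0.18) and read −0.04 ± 0.13 in H1975. In HCC827 it went from 21.7, 21.3 and 22 TPM to 11, 8.53 and 8.69 TPM. As a share of the summed TPM of the 4 factors, TCF7L1 went from 6.09 ± 0.571% (SD, n = 3) under DMSO to 67.5 ± 3.13% among persisters in PC9, from 6.28 ± 2.42% to 35.3 ± 3.66% in H1975, from 1.87 ± 0.597% to 18.1 ± 8.13% in HCC827 and from 40.2 ± 6.69% to 77.7 ± 0.468% in HCC2935.

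**Figure D3:**
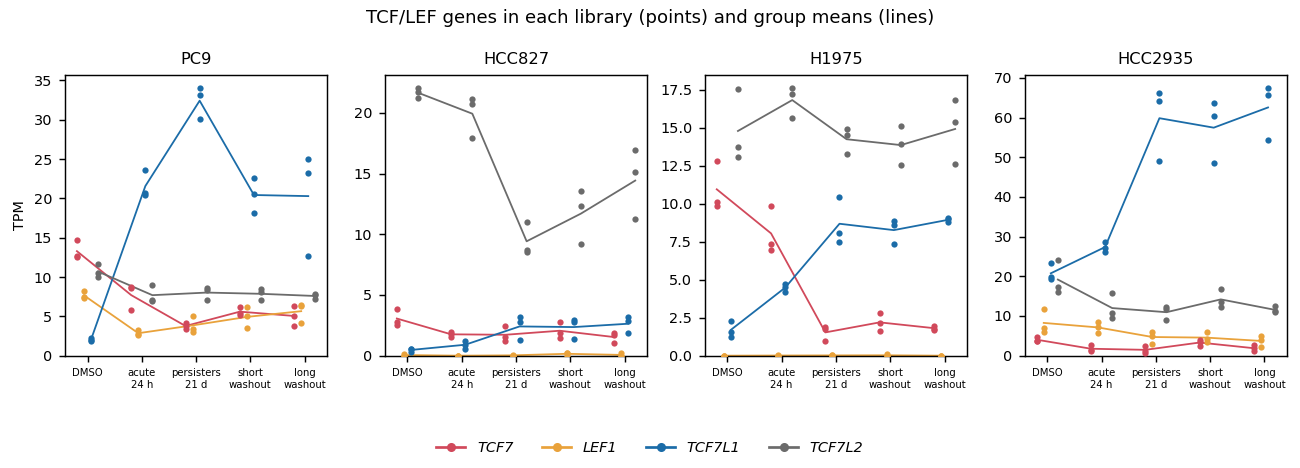
TPM of TCF7, LEF1, TCF7L1 and TCF7L2 in every library, on a linear axis from 0, with a panel for each line, points for libraries and lines for group means. TCF7L1 was higher and TCF7 lower among persisters than under DMSO in every line, and TCF7L2 held most of the summed level in every arm of HCC827 and H1975.

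Of the target and feedback genes, AXIN2, the inducible scaffold and a general readout of canonical signalling, rose among the persisters of 3 lines. PC9 libraries read 0.844, 1.77 and 1.06 TPM under DMSO, 7.43, 9.63 and 6.86 TPM in the acute arm and 7.38, 7.10 and 8.50 TPM among persisters (log2 fold change 2.38 ± 0.30, adjusted p = 8.357e-06). H1975 libraries read 0.523, 0.859 and 0.508 TPM under DMSO and 2.92, 2.11 and 1.78 TPM among persisters (1.87 ± 0.28, adjusted p = 8.701e-05). HCC827 libraries read 0.175, 0.0743 and 0 TPM and then 0.680, 0.591 and 0.358 TPM (2.79 ± 0.73, adjusted p = 0.00675). In these lines the persisters lay above DMSO in every library, at low levels in HCC827. HCC2935 had the highest AXIN2 under DMSO, 20.9, 14.2 and 24.9 TPM, and its persisters, at 23.2, 26.9 and 25.6 TPM, overlapped that range (0.19 ± 0.20, adjusted p = 0.455). Its acute arm averaged 27.7 TPM and was called higher than DMSO (edgeR adjusted p = 0.0492, kept in 6 of 14 alternatives). With the replicate block on the 6 libraries, where the numbers pair these samples, the log2 fold change was 0.45 (edgeR adjusted p = 0.00726). Among persisters, the F-test of the line differences gave an adjusted p of 0.000377.

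RNF43 and ZNRF3 are ubiquitin ligases that remove Frizzled receptors from the membrane. RNF43 fell in HCC2935 from 101, 90.6 and 99.8 TPM under DMSO to 53.1, 49.8 and 55.9 TPM among persisters (log2 fold change −1.02 ± 0.09). It rose in H1975 from 4.61, 8.21 and 5.61 TPM to 13.9, 13.4 and 17.7 TPM (1.32 ± 0.19), and in PC9 from 0.229, 0.373 and 0.216 TPM to 0.713, 1.21 and 0.994 TPM (1.58 ± 0.34). Groups did not overlap in these lines, and the line differences passed (adjusted p = 7.058e-05). RNF43 overlaps the antisense gene TSPOAP1-AS1. ZNRF3 fell in PC9 alone among persisters (−0.97 ± 0.15), though its acute falls were called in PC9, H1975 and HCC2935 at −1.62, −0.57 and −0.42. NKD1, an inhibitor acting on Dishevelled, fell in HCC2935 by 0.79 on the log2 scale and was called higher in HCC827 at means of 0.0412 and 0.234 TPM. DKK1, a secreted antagonist of LRP5 and LRP6, rose in PC9 from 26.8, 24.5 and 24.3 TPM to 49.3, 40.6 and 54.9 TPM. In HCC2935, DKK1 read 45.4, 46.4 and 24.7 TPM under DMSO, 12.9, 17.4 and 14 TPM in the acute arm and 58.5, 63.2 and 64.8 TPM among persisters, so that the acute libraries were the lowest (log2 fold change −1.36) and the persister comparison was not called (0.52 ± 0.22, adjusted p = 0.056).

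**Figure D4:**
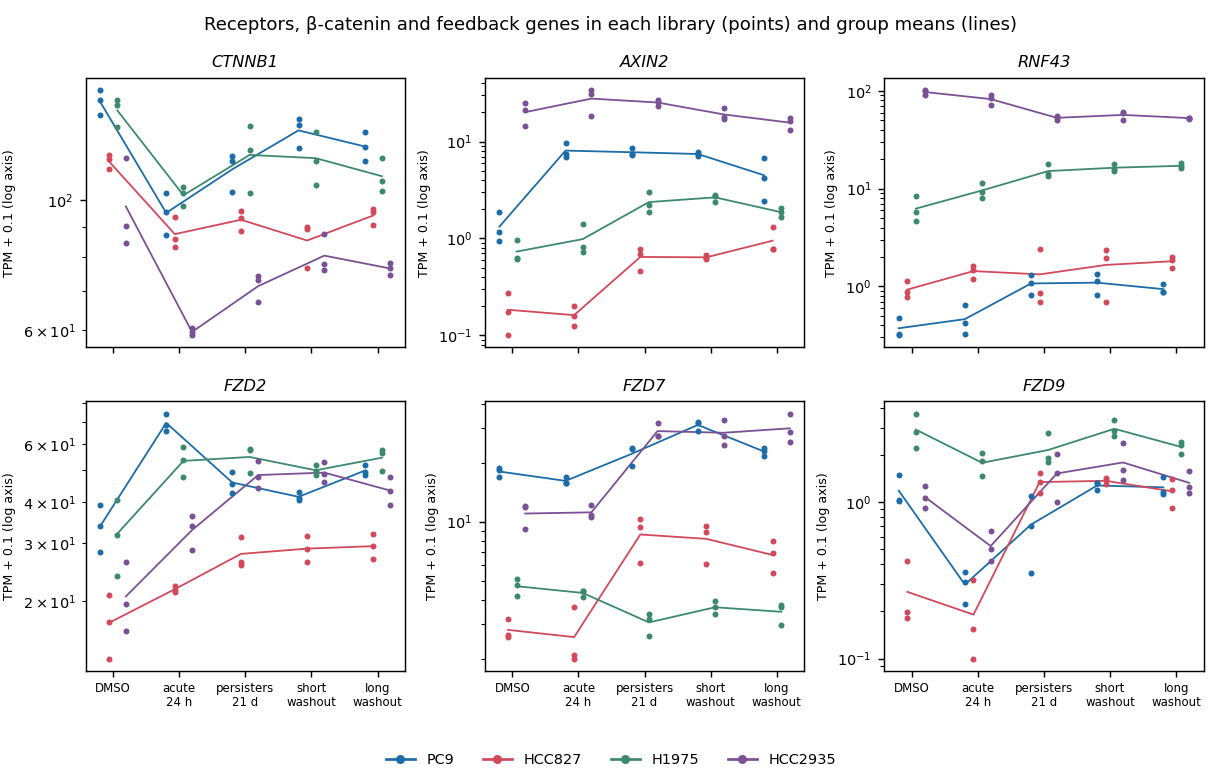
TPM of CTNNB1, AXIN2, RNF43, FZD2, FZD7 and FZD9 in every library, on a log axis after adding 0.1, by line and arm, with points for libraries and lines for group means. CTNNB1 was lower in every acute library than in any DMSO library of its line, and RNF43 fell in HCC2935 while it rose in H1975.

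Removal of the drug was compared with persisters. After 24 h, 2 of the 42 genes rose and 4 fell in PC9 (5.92% of all genes passed), and 0 were called in HCC827 (0%), H1975 (0.0585%) and HCC2935 (3.14%). With edgeR, 0, 1 and 3 of the genes in those 3 lines had an unadjusted p below 0.05, and DESeq2 and limma also called 0. The PC9 genes were WNT7B, WNT9A, WNT11 and TCF7L1, which fell by 0.33, 0.62, 0.72 and 0.66 on the log2 scale, and FZD3 and FZD7, which rose by 0.85 and 0.50. This count was 10 with only the 6 libraries in the fit and 0 to 3 with 1 replicate left out. In HCC827 and H1975, same-numbered replicates of these 2 arms deviated together. The fit with the replicate as a block called 0 of the genes in HCC827 and, in H1975, 1 of them, WNT10B (log2 fold change 0.81, adjusted p = 0.0417), where it called 1697 genes in all in place of 9.

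After the long washout, 6 genes rose and 8 fell against persisters in PC9 (37.2% of all genes passed). All 6 ligands called there fell, WNT2B by 1.19, WNT6 by 0.83, WNT7B by 0.29, WNT9A by 0.48, WNT10A by 1.24 and WNT11 by 0.72 on the log2 scale. AXIN2 and TCF7L1 fell by 0.75 and 0.61, calls kept in 4 and 12 of 14 alternatives. FZD3, FZD4, FZD6, LRP6, ZNRF3 and NKD1 rose. WNT6 read 16.7, 12.7 and 32.4 TPM in the long washout libraries, WNT10A 4.10, 2.71 and 11.9 TPM and AXIN2 4.10, 2.36 and 6.71 TPM, with replicate 3 nearest the persisters each time. Without replicate 3, 23 of the genes were called, 13 higher and 10 lower, where 48.8% of all genes passed, with WNT10A at −2.00 and WNT6 at −1.22, and with TCF7 (0.77), LEF1 (0.90) and CTNNB1 (0.29) among those that rose. Without replicate 1 the count was 9 (25.2% of all genes) and without replicate 2 it was 7 (20.9%), so the counts moved with those of all genes. In HCC2935, WNT5B and WNT9A fell against persisters (11.8% of all genes passed), to 7.42, 4.97 and 3.91 TPM and to 12, 9.69 and 8.63 TPM. Leaving out 1 replicate gave 1 to 4 genes there. In HCC827 (0% of all genes) and H1975 (0.0065%) 0 genes were called by edgeR, DESeq2 or limma, and 1 in each line had an unadjusted edgeR p below 0.05.

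Against DMSO, the long washout cells still differed in 14 higher and 5 lower genes in PC9 (44.9% of all genes passed), 13 and 4 in HCC827 (42%), 11 and 9 in H1975 (53.3%) and 11 and 8 in HCC2935 (43.3%). FZD2, TCF7L1 and WNT5A were higher in all 4 lines, where 3.34% of genes tested in all lines were, and CTNNB1 and TCF7 were lower in all 4, where 3.89% were. TCF7L1 stood at 3.12, 2.44, 2.44 and 1.49 on the log2 scale in PC9, HCC827, H1975 and HCC2935, and TCF7 at −1.54, −1.04, −2.56 and −1.20. WNT5A stood at 0.60, 3.77, 1.79 and 2.41, and CTNNB1 at −0.42, −0.35, −0.34 and −0.45. Without PC9 replicate 3, 14 genes were higher and 4 lower in PC9 (34.6% of all genes passed), with TCF7L1 at 2.99, TCF7 at −1.33, WNT5A at 0.68, CTNNB1 at −0.37 and FZD2 at 0.46, all still called. TCF7L1 and CTNNB1 kept these calls in all 4 lines under each of the 14 alternatives, TCF7 in 12 of 14 in HCC827 and 11 of 14 in HCC2935, and WNT5A in 12 of 14 in PC9. These comparisons share their DMSO libraries with the persister comparison. In the long washout arm all 12 proliferation genes were still lower in H1975 and HCC827, and 6 of 12 in PC9 and HCC2935. Some MAPK targets were also still lower in each line, as given above. The part of these genes in the WNT differences was not tested.

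Of the 37 genes tested in at least 2 lines, 13 were called in opposite directions in different lines among persisters, where 17% of all genes so tested were: WNT7A, WNT7B, WNT9A, WNT10B, FZD3, FZD4, FZD7, FZD8, FZD9, LRP5, LRP6, RNF43 and NKD1. The F-test of line differences passed for 31 of 38 genes tested among persisters and for 18 of 38 in the acute arm, where 61.6% and 40.5% of all genes passed.

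Other genes of the pathway, in lists by role, were read in the persister comparison. Of all genes, 69.2% passed in PC9, 43.4% in HCC827, 51.7% in H1975 and 52.8% in HCC2935. The shares called in the lists were not tested against these. For genes named below as changed in all 4 lines, the share over all genes tested in the 4 lines was 5.47% higher and 8.42% lower. The list called secretion here held WLS, PORCN and NOTUM, of which NOTUM is not itself a secretion gene. It had 2 higher and 1 lower of 3 tested in PC9, 2 and 0 of 3 in HCC827, 1 and 1 of 2 in H1975 and 1 and 0 of 3 in HCC2935. WLS, the carrier of WNT proteins to the surface, was higher in all 4 lines. Its log2 fold change was 0.35 in PC9, 0.91 in HCC827, 0.72 in H1975 and 0.40 in HCC2935. PORCN, the enzyme that adds the lipid, fell in PC9 by 0.53 and in H1975 by 0.74. Secreted antagonists and their receptors had 1 higher and 2 lower of 4 tested in PC9, 2 and 0 of 3 in HCC827, 1 and 1 of 4 in H1975 and 2 and 1 of 5 in HCC2935. DKK3 rose by 3.62, 1.30 and 2.96 on the log2 scale in PC9, HCC827 and HCC2935. R-spondins and their LGR receptors had 2 higher and 0 lower of 4 in PC9, 1 and 0 of 3 in HCC827, 2 and 0 of 3 in H1975 and 1 and 1 of 3 in HCC2935, with LGR5, a stem cell receptor, higher by 4.34 ± 0.28 in HCC2935. Genes of β-catenin-independent signalling had 4 higher and 4 lower of 10 in PC9, 4 and 2 of 10 in HCC827, 4 and 2 of 11 in H1975 and 5 and 1 of 10 in HCC2935, and the planar polarity gene PRICKLE1 was higher in all 4. Of the Dishevelled and destruction complex genes, 2, 2, 2 and 3 rose and 4, 1, 2 and 3 fell of 9 in PC9, HCC827, H1975 and HCC2935. Among them APC2 rose in all lines and CSNK1A1, a kinase that primes β-catenin, fell in all lines by 0.21 to 0.30. Nuclear cofactors had 3 higher and 3 lower of 9 in PC9, 3 and 2 of 10 in HCC827, 5 and 2 of 10 in H1975 and 1 and 2 of 10 in HCC2935. CTNNBIP1, an inhibitor that keeps β-catenin from TCF, fell in all lines, by 0.79, 0.94, 1.79 and 0.80 on the log2 scale. Other known β-catenin targets had 1 higher and 2 lower of 7 in PC9, 1 and 1 of 8 in HCC827, 3 and 2 of 8 in H1975 and 4 and 3 of 9 in HCC2935, with CCND1 lower in HCC827, H1975 and HCC2935. The median log2 fold changes of these lists in PC9, HCC827, H1975 and HCC2935 were 0.35, 0.91, −0.01 and 0.28 for secretion, −0.13, 1.30, 0.25 and −0.20 for the antagonists and 2.02, 1.35, 0.66 and −0.08 for R-spondins and LGR receptors, each over 2 to 5 tested genes. They were −0.22, 0.25, 0.32 and 0.33 for the β-catenin-independent genes, −0.18, 0.09, 0.01 and −0.06 for the destruction complex, 0.04, 0.24, 0.23 and −0.05 for the cofactors and −0.08, 0.46, −0.09 and 0.41 for the targets, beside the medians of all genes of 0.06, 0.03, 0.02 and 0.04. The genes named among these lists were picked after their values were seen.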

How the data were processed

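The authors deposited estimated counts per gene and log2 TPM values with a pseudocount of 0.01 added, for 60 libraries (poly(A)-selected RNA, paired-end). Per the labels, the submitters' processing notes name HISAT2 2.1.0, Salmon 0.8.2 and hg38, without role or order. The annotation and the strand setting are not given in the sources used here. TPM was recovered from the deposited log2 values, and whole-number rounding was applied to the estimated counts.

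Groups came from the labels, which call the replicates biological triplicates, and p-values measure the spread between these samples. All replicate pairs differed by more than counting error. Within each line, edgeR 4.0.16 (R 4.3.3; TMM, filterByExpr, quasi-likelihood F-test) was fitted to 15 libraries and tested 5 contrasts, with Benjamini-Hochberg adjustment over all genes tested and a threshold of 0.05. Fold changes are on the log2 CPM scale with their SE. Differences between lines were F-tests of 3 interaction contrasts over 24 libraries. Scripts were tested on simulated data. limma 3.58.1, DESeq2 1.42.0, other scalings, filters and left-out replicates were alternatives.

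Replicate numbers were taken to pair samples where every same-numbered pair correlated above 0.1 in its deviations from the group means. This held for HCC827 short washout against persisters (0.419 to 0.709), H1975 short washout against persisters (0.251 to 0.609) and HCC2935 acute against DMSO (0.131 to 0.367).

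Named were the 13 further genes and each ligand or receptor at 1 TPM or more in a group mean, with all libraries for AXIN2, LEF1, CTNNB1 and the 3 genes of each line with the largest called persister change. Genes named beyond this rule, and further per-library values, were chosen after the values were seen. The members and lists were chosen with earlier results of these data known. Estimated counts give each library 17.7 to 49.1 M, so floors cover counting error only. Sequences are from RefSeq (GRCh38.p14) and gene positions from GENCODE release 29, which may not be the annotation used for counting.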

Additional observations from a re-analysis of the deposited data

Results flagged for a closer look

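Effects of the same contrast differed between the 4 lines, by an F-test of 3 interaction contrasts, for the following genes. In the acute arm the adjusted p (edgeR) was 5.276e-05 for WNT6, 1.018e-07 for WNT9A, 0.002705 for WNT10A, 0.001777 for AXIN2 and 7.24e-07 for TCF7L1. Among persisters it was 1.26e-05 for WNT5A, 0.0002821 for WNT5B, 4.346e-05 for WNT6, 6.732e-10 for WNT9A and 1.981e-07 for WNT10A. For receptors and nuclear factors it was 0.0002285 for FZD9, 0.03103 for CTNNB1, 0.000377 for AXIN2, 0.005926 for TCF7 and 5.767e-05 for TCF7L1. WNT6 stood at 0 in the DMSO libraries of HCC827 and of H1975, so its fitted changes in these lines have no fixed size. Groups of 3 libraries were not tested for a single library standing apart.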

How the results depend on the processing

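Counts of called genes of the 42 moved by more than 1.5 times in few settings. With only the 6 libraries of a comparison in the fit, PC9 gave 10 for short washout against persisters and 5 for long washout against persisters (6 and 14 before), and 1 gene, TCF7L1, was called in the same direction among the persisters of all lines in place of 3. A replicate block likewise left 1, and gave 4 for HCC2935 long washout against persisters, as did DESeq2 (4; 2 before). A replicate block on the 6 libraries, chosen after seeing the data, gave 5 for PC9 long washout against persisters, 8 for H1975 acute (15 before), 1 for H1975 short washout and 0 for HCC2935 long washout against persisters. Beyond the comparisons whose numbers pair the samples, the replicates share only a number. Leaving out 1 replicate gave, for acute, persisters and long washout against DMSO, 22 to 25, 21 to 24 and 16 to 22 in PC9, 5 to 7, 14 to 18 and 13 to 17 in HCC827, 13 to 16, 18 to 22 and 17 to 21 in H1975, and 12 to 17, 18 to 25 and 16 to 20 in HCC2935. Short washout against persisters gave 0 to 3 in PC9 and 0 to 1 in HCC2935, and long washout against persisters 7 to 23 and 1 to 4. HCC827 acute gave 5 without DMSO replicate 1 or acute replicate 2, and HCC2935 acute 12 without acute replicate 2. The line differences passed for 9 to 15 genes in the acute arm (9 without replicate 1) and 20 to 29 among persisters (20 without replicate 3). Signs turned for uncalled values only: WNT5B in H1975 persisters ranged from −0.37 (without DMSO replicate 2 or 3, and −0.10 without DTP replicate 1) to 4.89, and WNT6 in HCC2935 persisters from −0.30 (without DTP replicate 2, and −0.10 without DMSO replicate 3) to 0.42. Over the other values of named genes, 1351 kept direction and side of the threshold, 128 lost and 8 gained a call. HCC827 WNT5B in long washout against DMSO lost its call without long washout replicate 3 (3.08, adjusted p = 0.0572). limma on log2 TPM moved the median of all genes by up to 0.249 (PC9 persisters), so small PC9 changes depend on the scaling. The cause of these moves was not tested.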
